A study of Mus musculus with 24 samples.

Results

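The genes described here are the xenobiotic receptors PXR (Nr1i2) and CAR (Nr1i3), their dimer partner RXR alpha (Rxra), the aryl hydrocarbon receptor (Ahr), and 6 genes of drug and heme metabolism that these receptors are known to control: Por, Alas1, Ces2a, Ces2c, Ugt1a1 and Ephx1. They are taken by gene symbol, with no threshold on measured values though with earlier results of these data known, and make up 10 of the 22429 genes in the mouse liver count table. PXR and CAR are nuclear receptors of hepatocytes that sense drugs, steroids and bile acids. Each binds DNA as a dimer with RXR alpha and switches on genes that oxidise, hydrolyse, conjugate and export lipophilic compounds. CAR is held in the cytoplasm until it is activated, so its messenger RNA level need not follow its activity. AHR is a receptor of another protein family that senses planar aromatic ligands, and its best known target in liver is Cyp1a2.

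PolyA RNA was sequenced from 24 liver samples of male mice, all F1 Hybrid C57BL6J/FVBN, in 6 groups of 4 libraries. Mice of genotype Ercc1 d/- have a truncated allele of a DNA repair gene beside a null one in all tissues and age prematurely, and they are called mutants here. Mice of genotype Ercc1 +/+ are the wild types. The groups were mutants at 16 weeks of age on 30% dietary restriction (1.6 g of food a day), freely fed mutants at 16 weeks (2.3 g a day), freely fed mutants at 7 weeks, wild types at 16 weeks on 30% restriction (2.1 g a day), freely fed wild types at 104 weeks and freely fed wild types at 16 weeks (3.0 g a day). Restriction started at 7 weeks with 10% and stood at 30% from 9 weeks. Restricted mice received their food just before the lights went off, and none was given on the day the livers were taken. Nothing in the labels says that each of the 4 samples is another animal, so the p-values cover only the spread among the samples given.

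Total counts ran between 13.3 and 20.6 M per library, and the 10 genes had between 117 and 28165 counts in a library, so counting error was small beside the spread between libraries. Levels are given as CPM, the count of a gene scaled to a common library total after TMM normalization. A gene is called higher or lower where edgeR's quasi-likelihood test gave a Benjamini-Hochberg adjusted p under 0.05 over the 12690 genes tested, and log2 fold changes are given ± SE. Ercc1 itself averaged 1.55 ± 0.331 CPM in restricted mutants, 1.51 ± 0.414 CPM in freely fed 16-week mutants and 1.61 ± 0.489 CPM in 7-week mutants, against 3.52 ± 0.977, 3.11 ± 0.756 and 2.59 ± 0.413 CPM in restricted, 104-week and freely fed 16-week wild types (SD, n = 4 each). The hepatocyte markers in the table, 5 of the 6 listed, summed to between 71260 and 155300 CPM in every library. The sums did not overlap between restricted mutants (86520 to 112900 CPM, with 3 of 5 markers lower and 1 higher) and restricted wild types (117700 to 155300 CPM), and 3 of 5 were also lower and 1 higher in restricted than in freely fed mutants. Of 3 erythroid markers tested, 2 were lower in freely fed mutants, where the listed markers summed to 238 to 422 CPM, than in freely fed wild types, at 679 to 1290 CPM. Restricted wild types also had 2 of 3 lower, with sums of 199.9 to 442.5 CPM. Macrophage and Kupffer cell markers differed by genotype. In freely fed mutants 6 of 9 were higher, with sums of 146 to 293 CPM, against 99.0 to 149 CPM in freely fed wild types, and in restricted mutants all 9 were higher, with sums of 222 to 312 CPM, against 77.5 to 139 CPM in restricted wild types. Of 6 pericentral hepatocyte markers, 1 was higher and none lower in freely fed mutants than in wild types. The sums were 6562 to 8467 against 5680 to 6351 CPM. Under restriction, 2 of 6 periportal markers were higher and none lower in mutants. The sums were 8269 to 10060 against 5101 to 6657 CPM. Periportal sums did not overlap between diets at 16 weeks, higher with restriction in mutants and lower in wild types. In whole liver, fewer cells of a type and less RNA per cell cannot be told apart, and the part of these cell types and zones in the results below was not tested.

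Ces2a, a carboxylesterase, was the member with the clearest genotype difference, since it was lower in mutants than in wild types on both diets. Nr1i3 was lower in freely fed 16-week mutants and in 104-week wild types than in freely fed 16-week wild types. Ugt1a1 was higher and Ephx1 lower in restricted than in freely fed mice of both genotypes. Nr1i2, Rxra, Por and Alas1 were not called in any comparison.

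In freely fed 16-week mice, 1 of the 10 genes was higher in mutants (Ahr) and 2 were lower (Nr1i3 and Ces2a), beside 5.1% of all tested genes called higher and 4.85% called lower. Under restriction, 1 was higher in mutants (Ces2c) and 1 was lower (Ces2a), beside 9.58% and 8.7% of all genes. Restricted wild types had 1 gene higher (Ugt1a1) and 2 lower (Ces2c and Ephx1) than freely fed wild types, beside 6.3% and 7.3% of all genes. Restricted mutants had 1 higher (Ugt1a1) and 1 lower (Ephx1) than freely fed mutants, beside 4.91% and 6.33% of all genes. At 104 weeks 1 gene was lower than at 16 weeks in wild types (Nr1i3) and none was called higher by edgeR, beside 5% and 5.13% of all genes. DESeq2 gave the same single call. An unadjusted p under 0.05 was reached by 3 of the 10. The shares of all genes are for adjusted p and give no background for that count. Mutants at 16 weeks had 1 gene lower than at 7 weeks (Ces2a), beside 0.331% of all genes called lower and 0.355% called higher. With only 10 genes a single call moves the share by more than any of these backgrounds, so the genes are described one by one. The median log2 fold change of the 10 genes was 0.11 for the genotype under free feeding and 0.24 under restriction, and the medians of all tested genes were 0.02 and -0.03.

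**Figure D1:**
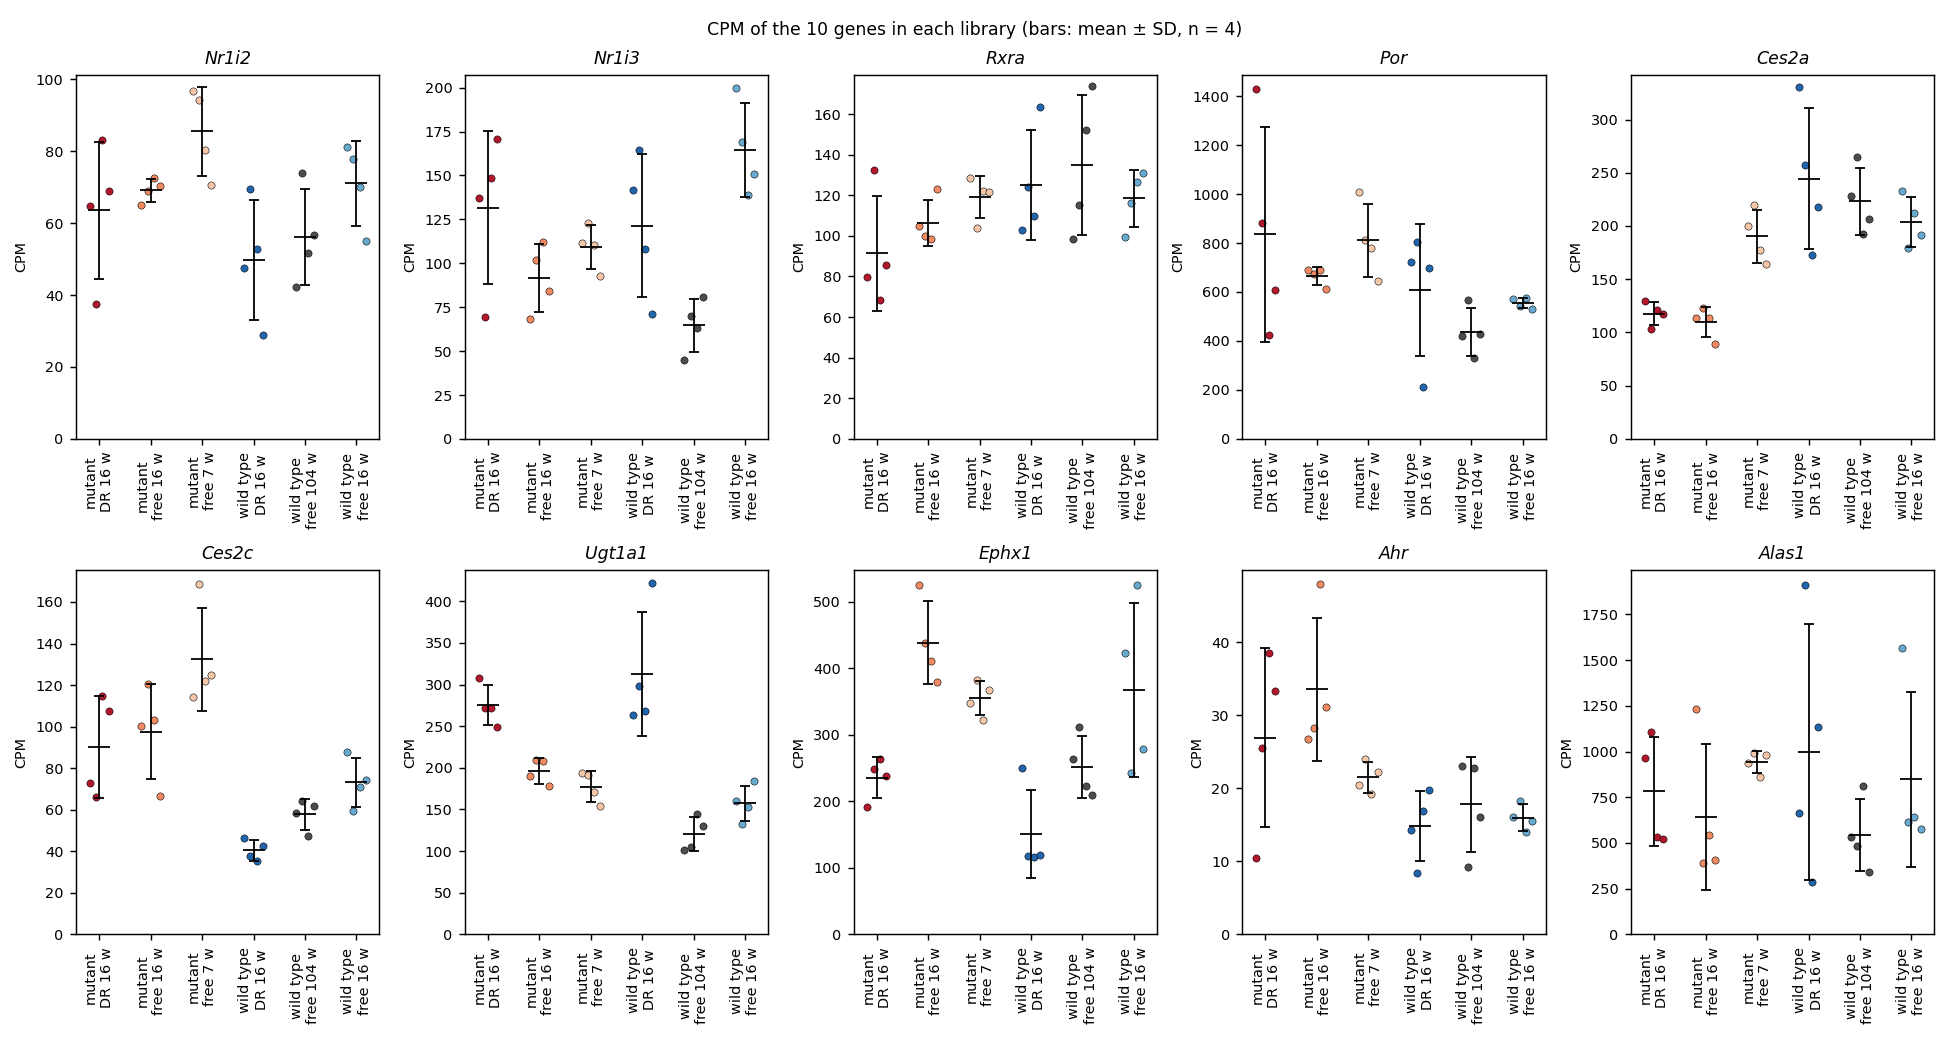
CPM of each of the 10 genes (y axis, from 0) in each of the 24 libraries, by group (x axis); each point is a library, and bars give the mean ± SD over 4 libraries. Ces2a sits between 89.4 and 129 CPM in all 8 mutant libraries at 16 weeks, below every wild-type library, and Alas1 spreads between 284 and 1911 CPM within restricted wild types alone.

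Per kilobase of annotated exon, the levels in freely fed 16-week wild types fell in the order Ephx1 (188 CPM per kb), Por (138), Alas1 (137), Ces2a (86.5), Ugt1a1 (70.7), Nr1i3 (37.3), Ces2c (31.8), Nr1i2 (27.8), Rxra (21.7) and Ahr (2.59). These are levels relative to the union of all annotated exons of a gene, which can be longer than the transcript the liver makes. The union has 6174 bases for Alas1 and 4414 for Nr1i3, while the transcripts Alas1-201 and Nr1i3-201 have 2129 and 1414. The order therefore depends on the length used, and by those transcripts both genes would rank higher.

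Nr1i3 lies on chromosome 1 (GRCm38, chr1:171213970-171220701, plus strand). The 250 bases before its RefSeq start (GRCm38.p6, chr1:171213720-171213969, plus strand) are shown because Nr1i3 was called in comparisons of both genotype and age. Capitals mark the only match in this window to the motifs searched, an E-box (CACGTG), the sequence bound by the clock factors CLOCK and ARNTL, 244 to 239 bases upstream.
Nr1i3: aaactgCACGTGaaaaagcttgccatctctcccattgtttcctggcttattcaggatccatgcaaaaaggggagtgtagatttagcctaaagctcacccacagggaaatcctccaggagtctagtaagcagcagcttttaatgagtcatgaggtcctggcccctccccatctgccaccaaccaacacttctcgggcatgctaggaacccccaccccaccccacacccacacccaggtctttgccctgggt
An E-box was found in 6.02% of the 32851 promoter windows of the same length in the RefSeq table, on either strand. A match is a string of letters and not evidence of binding.

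The CAR gene Nr1i3 had 137, 69.7, 149 and 171 CPM in restricted mutants, 68.4, 102, 112 and 84.0 CPM in freely fed 16-week mutants and 112, 123, 110.2 and 92.5 CPM in 7-week mutants. In the wild types it had 142, 164, 108 and 71.4 CPM under restriction, 45.1, 70.0, 63.0 and 80.7 CPM at 104 weeks and 199.7, 169, 139 and 151 CPM at 16 weeks of free feeding. All 4 freely fed 16-week wild-type libraries stood above all 4 freely fed 16-week mutant libraries and above all 4 libraries of 104 weeks, while both restricted groups held 1 low library each and spanned the range between.

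Nr1i3 was lower in freely fed mutants than in wild types of 16 weeks, with a log2 fold change of -0.85 ± 0.25 and an adjusted p of 0.0284, a 1.80-fold lower level. That call was lost without replicate 1 or 4 of the mutants or replicate 1 or 2 of the wild types, where the adjusted p reached up to 0.107, and the log2 fold change stayed between -0.96 and -0.73. It was 2.54-fold lower in wild types at 104 weeks than at 16 weeks (-1.35 ± 0.25, adjusted p = 0.000973), and this call held when each of the 8 libraries was left out in turn. Between restricted mutants and restricted wild types the log2 fold change was 0.11 ± 0.24 (adjusted p = 0.796). Restricted mutants stood at 0.52 ± 0.24 relative to freely fed mutants (adjusted p = 0.181), which was called only without replicate 2 of the restricted mutants (0.73, adjusted p = 0.0369), the lowest library of that group. From 7 to 16 weeks in mutants the log2 fold change was -0.26 ± 0.24 (adjusted p = 0.789). The age effect differed between mutants and wild types by 1.09 ± 0.35 (adjusted p = 0.0943), a difference called in a fit of those groups alone (adjusted p = 0.00774) and by DESeq2 (adjusted p = 0.0437). The spans compared there, 7 to 16 weeks and 16 to 104 weeks, are not the same.

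Nr1i3 shares its place with another gene. Of its 4414 annotated exon bases, 3304 (74.9%) are also exons of Tomm40l, a mitochondrial import gene on the opposite strand, and 37.5% of the stretches of 75 bases in the transcript Nr1i3-201 also occur in Tomm40l. How reads in such stretches were counted, and whether by strand, is not given in the sources used here. Tomm40l had 18.7, 42.5, 18.8 and 38.3 CPM in 104-week wild types and 67.1, 57.4, 49.5 and 49.1 CPM in freely fed 16-week wild types, and its log2 fold change was -0.92 ± 0.32 (adjusted p = 0.0706). In freely fed 16-week mutants Tomm40l had 27.1, 40.1, 48.5 and 41.3 CPM, at -0.51 ± 0.31 relative to the wild types (adjusted p = 0.345). Whether reads of one gene entered the count of the other was not tested, and Tomm40l was the tested gene whose levels followed Nr1i3 most closely over the 24 libraries (r = 0.884).

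The 104-week livers also stood apart in the clock genes. Dbp, a clock output factor, averaged 110.4 ± 48.6 CPM at 104 weeks, against 11.9 ± 5.45 CPM at 16 weeks (SD, n = 4 each), a log2 fold change of 3.21 ± 0.39. Arntl, the partner of CLOCK, averaged 1.99 ± 0.597 CPM at 104 weeks, against 14.1 ± 4.23 CPM at 16 weeks (-2.82 ± 0.28). Nr1d1, a repressor of Arntl, averaged 52.7 ± 7.63 CPM at 104 weeks, against 3.88 ± 1.87 CPM at 16 weeks (3.75 ± 0.40). Levels of Dbp and Arntl in the 104-week group did not overlap any other group. The labels give no time of collection for each group, and the part of the clock phase in the lower Nr1i3 of 104-week livers was not tested. In 104-week livers, B and plasma cell markers also summed to between 13.9 and 17.4 CPM, against 0.732 to 2.40 CPM at 16 weeks.

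**Figure D2:**
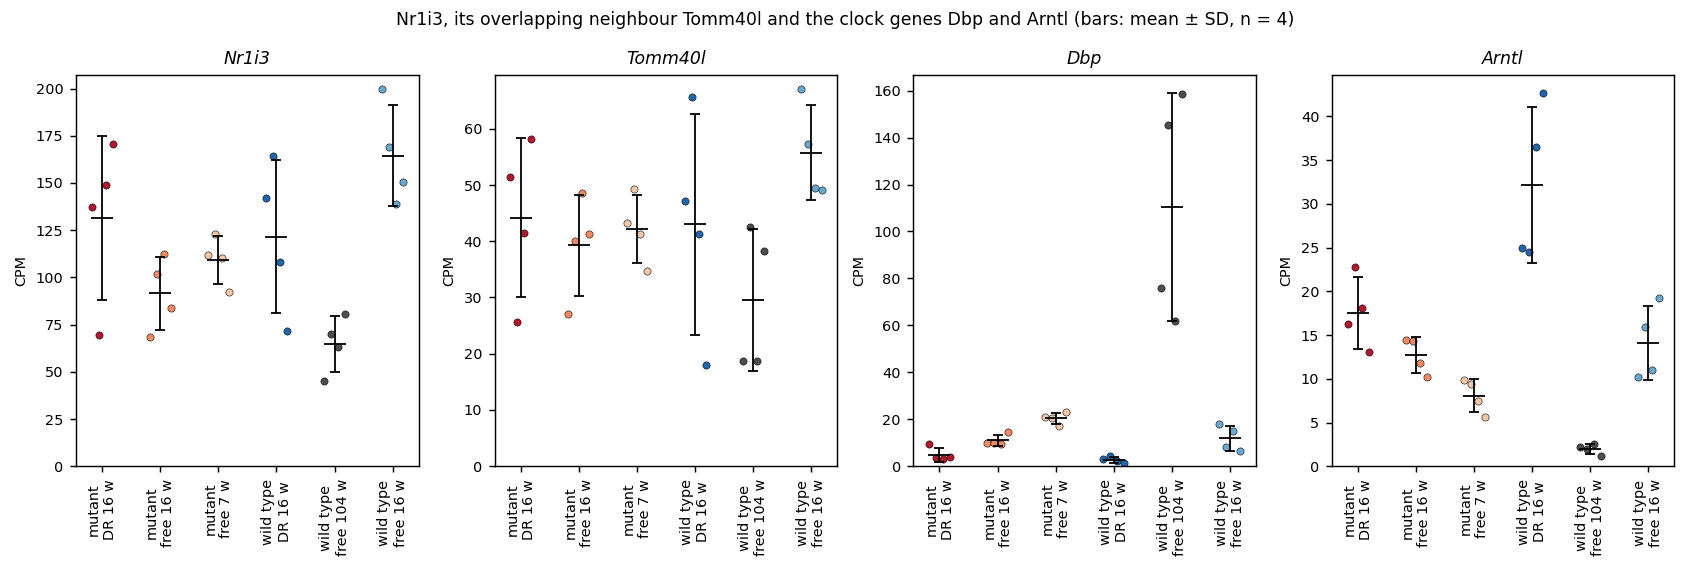
CPM (y axes, from 0) of Nr1i3, of Tomm40l, which overlaps it, and of the clock genes Dbp and Arntl in each library by group (x axis); bars give the mean ± SD over 4 libraries. Nr1i3 and Tomm40l follow each other over the 24 libraries (r = 0.884), and the 104-week wild types stand apart in Dbp (62.0 to 159 CPM) and Arntl (1.16 to 2.56 CPM).

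Nr1i2, which encodes PXR (chr16:38248323-38294824, minus strand), had 64.7, 37.5, 82.9 and 69.0 CPM in restricted mutants, 64.9, 68.9, 72.4 and 70.3 CPM in freely fed 16-week mutants and 96.8, 94.3, 80.3 and 70.5 CPM in 7-week mutants. In the wild types it had 47.5, 69.5, 52.7 and 29.0 CPM under restriction, 42.3, 74.0, 51.6 and 56.8 CPM at 104 weeks and 81.2, 77.8, 70.1 and 54.9 CPM at 16 weeks of free feeding. Group means ran from 85.5 CPM in 7-week mutants to 49.7 CPM in restricted wild types, and each group overlapped the next in that order. The genotype difference was -0.04 ± 0.22 under free feeding (adjusted p = 0.942) and 0.36 ± 0.22 under restriction (adjusted p = 0.283). The lowest comparison, restricted over freely fed wild types, stood at -0.52 ± 0.22 (adjusted p = 0.125), and was called only without replicate 2 of the restricted wild types (-0.72, adjusted p = 0.0302). Once the group means were removed, Nr1i2 and Nr1i3 moved together over the 24 libraries (r = 0.84), which is a description and shares the scaling of each library.

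Rxra, the common partner (chr2:27676440-27762957, plus strand), had 79.6, 133, 68.4 and 85.5 CPM in restricted mutants, 105, 99.8, 98.4 and 123 CPM in freely fed 16-week mutants and 128, 104, 122 and 121 CPM in 7-week mutants. In the wild types it had 103, 124, 109.7 and 163 CPM under restriction, 98.4, 115, 152 and 174 CPM at 104 weeks and 99.5, 116, 127 and 131 CPM at 16 weeks of free feeding. All neighbouring groups in the order of means overlapped. Restricted mutants stood at -0.45 ± 0.19 relative to restricted wild types (adjusted p = 0.0944), and without replicate 2 of the restricted mutants, their highest library, the value was -0.69 (adjusted p = 0.00918). Under free feeding the genotype difference was -0.15 ± 0.19 (adjusted p = 0.682).

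Ahr was the least abundant of the 10 genes (chr12:35497974-35535038, minus strand). It had 10.5, 25.5, 38.5 and 33.4 CPM in restricted mutants, 26.8, 28.3, 47.9 and 31.1 CPM in freely fed 16-week mutants and 20.5, 24.04, 19.2 and 22.2 CPM in 7-week mutants. Wild-type levels were 14.3, 8.38, 16.9 and 19.7 CPM under restriction, 23.0, 9.25, 22.8 and 16.0 CPM at 104 weeks and 16.1, 18.3, 14.0 and 15.6 CPM at 16 weeks of free feeding. The freely fed 16-week mutants stood above every library of the freely fed 16-week wild types and of the 7-week mutants. Restricted mutants held both a low library (10.5 CPM) and 3 libraries above all restricted wild types.

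Ahr was 2.10-fold higher in freely fed mutants than in wild types (1.07 ± 0.31, adjusted p = 0.0312). This call was lost without replicate 3 of the mutants, without any 1 of the wild-type libraries (adjusted p up to 0.126, log2 fold changes of 0.85 to 1.16) and without a filter on low counts (adjusted p = 0.0538). Under restriction the difference was 0.86 ± 0.31 (adjusted p = 0.0605), and it was called without replicate 1 of the mutants (1.12, adjusted p = 0.00503), without replicate 4 of the wild types (1.03, adjusted p = 0.0423), by DESeq2 (adjusted p = 0.0274) and under upper-quartile scaling (adjusted p = 0.0403). From 7 to 16 weeks in mutants it stood at 0.64 ± 0.31 (adjusted p = 0.483), called in a fit of those groups alone (adjusted p = 0.0415). Macrophages, whose markers were higher in mutants, also express Ahr, and their part in the result was not tested.

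AHR partners and targets were described from a list of 12 genes, of which 8 were tested. Nqo1, a quinone reductase controlled by both AHR and NRF2, was higher in mutants on both diets, at 6.94 ± 1.31 CPM in freely fed mutants, against 3.41 ± 0.807 CPM in freely fed wild types (1.02 ± 0.30, adjusted p = 0.0306), and at 10.2 ± 3.66 CPM in restricted mutants, against 2.96 ± 1.37 CPM in restricted wild types (1.76 ± 0.30, adjusted p = 0.000208). The first of these calls was lost when any 1 of 6 of the 8 libraries was left out (adjusted p up to 0.102). The P450 Cyp1a2 was not called between genotypes under free feeding, with 272 ± 52.6 CPM in freely fed mutants and 204 ± 35.9 CPM in freely fed wild types (0.41 ± 0.23, adjusted p = 0.272). It was lower in restricted mutants, at 103 ± 16.2 CPM, than in freely fed mutants (-1.40 ± 0.23, adjusted p = 0.000156), and higher in wild types at 104 weeks, at 360.0 ± 80.2 CPM, than at 16 weeks (0.82 ± 0.23, adjusted p = 0.0225, lost without any 1 of 5 of the 8 libraries). In mutants Cyp1a2 was lower at 16 weeks, at 272 ± 52.6 CPM, than at 7 weeks, at 537 ± 102 CPM (-0.98 ± 0.23, adjusted p = 0.0404, lost without any 1 of 7 of the 8 libraries), while Ahr was not called there. The age effect of Cyp1a2 in mutants minus that in wild types was -1.80 ± 0.32 (adjusted p = 0.00174). Cyp1a1, a related P450, was lower in restricted than in freely fed mutants (-1.36 ± 0.25, adjusted p = 0.000469), and its age effects differed likewise, by -1.73 ± 0.34 (adjusted p = 0.0044). Tiparp, which restrains AHR, was higher at 104 weeks, at 24.1 ± 22.9 CPM, than at 16 weeks, at 5.26 ± 1.11 CPM (2.19 ± 0.45, adjusted p = 0.00309), and was not called in a fit of those groups alone (adjusted p = 0.105).

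Por encodes the reductase that passes electrons to every microsomal P450 (chr5:135670033-135735326, plus strand). It had 1427, 882, 424 and 606 CPM in restricted mutants, 691, 674, 689 and 613 CPM in freely fed 16-week mutants and 1007, 813, 781 and 645 CPM in 7-week mutants. In the wild types it had 721, 805, 210.2 and 696 CPM under restriction, 421, 568, 332 and 429 CPM at 104 weeks and 571, 542, 575 and 531 CPM at 16 weeks of free feeding. Both restricted groups were wide, each with libraries above and below the freely fed groups of the same genotype. All 4 freely fed 16-week mutant libraries stood above the freely fed 16-week wild types, but the fitted difference was 0.27 ± 0.32 (adjusted p = 0.677) and was not called. The genotype difference under restriction was 0.46 ± 0.32 (adjusted p = 0.34).

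Alas1 encodes the first and rate-limiting enzyme of heme synthesis, which supplies the P450s (chr9:106233455-106248654, minus strand). It had 965, 1106, 532 and 523 CPM in restricted mutants, 1230, 388, 544 and 407 CPM in freely fed 16-week mutants and 937, 992, 863 and 982 CPM in 7-week mutants. In the wild types it had 663, 1911, 284 and 1133 CPM under restriction, 531, 482, 812 and 343 CPM at 104 weeks and 1565, 616, 639 and 573 CPM at 16 weeks of free feeding. Only the 7-week mutants were close together, and in both freely fed 16-week groups replicate 1 lay far above the rest. The SE of 0.48 on each log2 fold change makes Alas1 the least precisely measured of the 10, and its 6 fold changes lay between -0.65 and 0.28. Of 13 listed genes of heme synthesis and breakdown, Cpox, a later enzyme of the pathway, was lower in restricted mutants, at 122 ± 28.0 CPM, than in restricted wild types, at 219.7 ± 60.2 CPM (-0.85 ± 0.17, adjusted p = 0.000793), and lower than in freely fed mutants, at 195 ± 11.8 CPM (-0.68 ± 0.17, adjusted p = 0.00745). It was also lower in wild types at 104 weeks, at 130.1 ± 25.6 CPM, than at 16 weeks, at 227 ± 12.7 CPM (-0.80 ± 0.17, adjusted p = 0.00255).

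Ces2a and Ces2c are carboxylesterases that hydrolyse ester and amide drugs as well as glycerol esters. They lie in the same cluster on the plus strand of chromosome 8, at chr8:104734003-104741634 and chr8:104847068-104854483. Their windows of 250 bases upstream (RefSeq, GRCm38.p6, plus strand, chr8:104733753-104734002 and chr8:104846818-104847067) are shown because these neighbours were called in opposite directions between genotypes under restriction; under free feeding only Ces2a was called. Capitals mark the only match to the motifs searched, the nuclear receptor hexamer AGGTCA in Ces2a, 226 to 221 bases upstream.
Ces2a: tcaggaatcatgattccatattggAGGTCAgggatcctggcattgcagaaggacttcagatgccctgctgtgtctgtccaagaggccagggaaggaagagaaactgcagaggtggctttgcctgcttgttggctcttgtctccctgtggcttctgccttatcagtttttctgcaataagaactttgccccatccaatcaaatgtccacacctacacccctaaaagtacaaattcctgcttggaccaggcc
Ces2c: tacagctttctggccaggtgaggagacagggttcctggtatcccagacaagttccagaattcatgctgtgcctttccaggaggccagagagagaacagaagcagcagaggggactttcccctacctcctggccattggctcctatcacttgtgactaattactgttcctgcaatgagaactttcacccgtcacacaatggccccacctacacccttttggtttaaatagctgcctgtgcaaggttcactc
The windows matched at 166 of 257 alignment columns (64.6%), and the main transcripts at 1583 of 1997 (79.3%). The hexamer AGGTCA, on either strand, was found in 14.0% of all windows.

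Ces2a had 129, 103, 121 and 117 CPM in restricted mutants, 114, 123, 114 and 89.4 CPM in freely fed 16-week mutants and 199.7, 220.0, 178 and 164 CPM in 7-week mutants. Wild-type levels were 330.2, 257, 173 and 218 CPM under restriction, 229, 265, 192 and 207 CPM at 104 weeks and 233, 179, 213 and 191 CPM at 16 weeks of free feeding. Both 16-week mutant groups lay below all wild-type libraries and below all 7-week mutants, and the 7-week mutants overlapped the wild types.

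Ces2a was 1.86-fold lower in freely fed mutants than in wild types (-0.89 ± 0.16, adjusted p = 0.000428), and 2.08-fold lower under restriction (-1.06 ± 0.16, adjusted p = 4.5e-05). Both calls held in each fit without 1 of the libraries compared. The difference between these genotype effects was -0.16 ± 0.22 (adjusted p = 0.798). In mutants it was 1.73-fold lower at 16 weeks than at 7 weeks (-0.79 ± 0.16, adjusted p = 0.0136), a call lost without replicate 1 or 2 of the 7-week mutants or replicate 4 of the 16-week mutants (adjusted p up to 0.07). In wild types at 104 weeks it stood at 0.13 ± 0.16 relative to 16 weeks (adjusted p = 0.667). The age effect in mutants minus that in wild types was -0.92 ± 0.22 (adjusted p = 0.0202), the only member called in that comparison, beside 1.25% of all genes called lower and 1.8% called higher. It was lost without replicate 2 of the 7-week mutants or replicate 4 of the 16-week mutants (adjusted p up to 0.0545). The genotype and age comparisons of mutants share the freely fed 16-week libraries.

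Ces2c had 72.7, 65.9, 115 and 107 CPM in restricted mutants, 100.1, 121, 103 and 66.4 CPM in freely fed 16-week mutants and 114, 169, 122 and 125 CPM in 7-week mutants. Wild-type levels were 46.5, 37.6, 35.3 and 42.4 CPM under restriction, 58.6, 64.0, 47.2 and 61.6 CPM at 104 weeks and 87.8, 59.5, 70.7 and 74.4 CPM at 16 weeks of free feeding. The restricted wild types were the lowest group and did not overlap any other. Ces2c was 2.23-fold higher in restricted mutants than in restricted wild types (1.15 ± 0.19, adjusted p = 0.000117), and 1.81-fold lower in restricted than in freely fed wild types (-0.85 ± 0.19, adjusted p = 0.00345). These comparisons share the restricted wild-type libraries, and both calls held without each library in turn. Under free feeding the genotype difference was 0.42 ± 0.19 (adjusted p = 0.164), and restriction in mutants gave -0.12 ± 0.18 (adjusted p = 0.76). The restriction effect in mutants minus that in wild types was 0.74 ± 0.26 (adjusted p = 0.181).

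None of the 10 genes was called by edgeR for that difference of restriction effects, beside 0.906% of all genes called higher and 0.591% called lower. At an unadjusted p under 0.05 there were 3, Nr1i3 (0.96 ± 0.35), Ces2c and Ugt1a1, and DESeq2 also called none of the 10. The shares of all genes are for adjusted p and give no background for these 3.

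The ratio of Ces2c to Ces2a within a library does not depend on scaling. It averaged 0.767 ± 0.194 in restricted mutants, 0.879 ± 0.100 in freely fed 16-week mutants and 0.696 ± 0.0907 in 7-week mutants, against 0.172 ± 0.0325 in restricted, 0.260 ± 0.0256 in 104-week and 0.357 ± 0.0296 in freely fed 16-week wild types (SD, n = 4 each). The lowest mutant library, at 0.563, lay above the highest wild-type library, at 0.389. The ratio is an unequal change of the pair and does not say which of them moved. Within groups the pair went together (r = 0.61 over the 24 libraries after removal of group means).

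**Figure D3:**
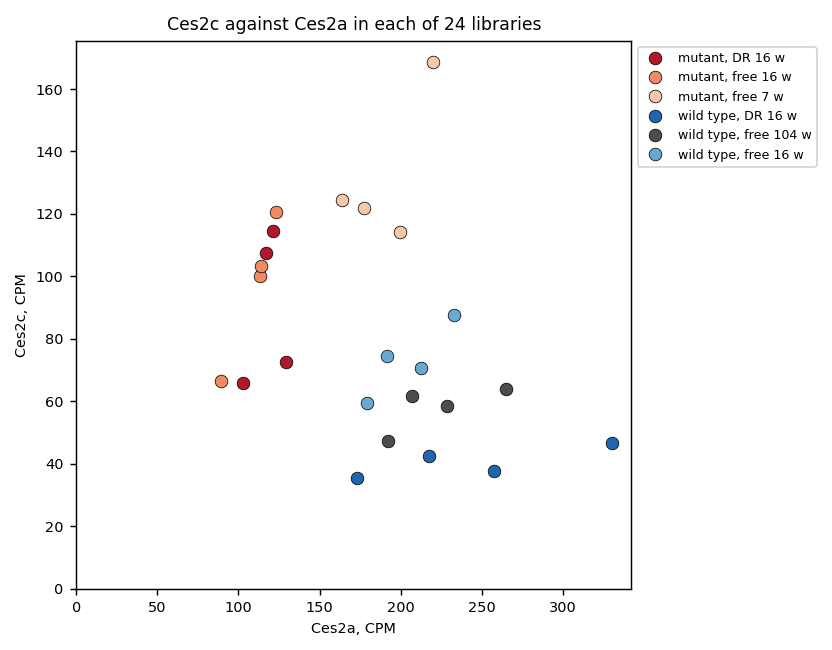
Level of Ces2c (y axis, CPM) against that of Ces2a (x axis, CPM), both from 0; each point is 1 of the 24 libraries, coloured by group. In every mutant library Ces2c stands at 0.563 or more of Ces2a, and in every wild-type library at 0.389 or less.

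Some reads of these genes cannot be placed. Of the stretches of 75 bases in the Ces2c transcript, 25.9% also occur in Ces2b, Ces2d-ps or 2 gene models, and 14.8% of those of Ces2a occur in the gene model Gm7208. Ces2b followed Ces2c most closely of all tested genes (r = 0.981). It had 36.7 ± 6.00 CPM in restricted mutants, against 19.6 ± 3.05 CPM in restricted wild types (0.90 ± 0.16, adjusted p = 0.000258).

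Of 12 other carboxylesterases tested, 3 were lower in freely fed mutants than in wild types, beside 4.85% of all tested genes called lower. These were Ces1f, at 179 ± 21.8 CPM in freely fed mutants, against 566 ± 87.6 CPM in wild types (-1.66 ± 0.19, adjusted p = 2.18e-06), Ces1e (-1.60 ± 0.17, adjusted p = 7.96e-07) and Ces1d (-1.20 ± 0.23, adjusted p = 0.000916). Under restriction 2 were higher and 6 lower in mutants, beside 9.58% and 8.7% of all genes. Ces1f stood at 91.4 ± 23.95 CPM in restricted mutants, against 372 ± 127 CPM in restricted wild types (-2.02 ± 0.19, adjusted p = 1.12e-07). Restriction in mutants came with lower Ces3a, at 351 ± 109.9 CPM in restricted mutants, against 2312 ± 144 CPM in freely fed mutants (-2.72 ± 0.40, adjusted p = 7.44e-05). In wild types Ces3a was lower with restriction too (-1.77 ± 0.39, adjusted p = 0.00421, and 0.0921 in a fit of those groups alone). It averaged 494 ± 479 CPM in restricted and 1684 ± 151.5 CPM in freely fed 16-week wild types.

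Ugt1a1 encodes the enzyme that conjugates bilirubin with glucuronic acid (chr1:88211959-88218997, plus strand). The 250 bases before its first exon (RefSeq, GRCm38.p6, chr1:88211709-88211958, plus strand) are shown because this first exon is what sets Ugt1a1 apart from its Ugt1a neighbours. Capitals mark the only match, the hexamer AGTTCA, 162 to 157 bases upstream, which was found on either strand in 11.8% of windows.
Ugt1a1: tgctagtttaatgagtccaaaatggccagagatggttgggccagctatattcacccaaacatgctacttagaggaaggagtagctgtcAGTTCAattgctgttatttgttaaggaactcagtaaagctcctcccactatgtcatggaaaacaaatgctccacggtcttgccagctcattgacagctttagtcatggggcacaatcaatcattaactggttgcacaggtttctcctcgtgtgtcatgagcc
A pair of hexamers AGGTCA or AGTTCA in the same orientation with the DR4 or DR3 spacing that CAR and PXR prefer was found in 0.0244% and 0.0122% of all windows and in no window of the members. The enhancers through which CAR and PXR are known to act can lie outside these windows.

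Ugt1a1 had 307, 271, 272 and 249 CPM in restricted mutants, 189.9, 209.7, 208 and 178 CPM in freely fed 16-week mutants and 193, 191, 171 and 154 CPM in 7-week mutants. Wild-type levels were 263, 298, 268 and 422 CPM under restriction, 101, 105, 144 and 129.9 CPM at 104 weeks and 159.5, 132, 153 and 184 CPM at 16 weeks of free feeding. All 8 restricted libraries lay above all 16 freely fed ones. Ugt1a1 was 1.99-fold higher in restricted than in freely fed wild types (0.99 ± 0.15, adjusted p = 6.01e-05), in each fit without 1 library too. It was 1.40-fold higher in restricted than in freely fed mutants (0.49 ± 0.14, adjusted p = 0.0289), a call lost without replicate 1 or 4 of the freely fed or replicate 1 or 2 of the restricted mutants (adjusted p up to 0.0925, log2 fold changes of 0.43 to 0.53). The difference between these effects was -0.51 ± 0.20 (adjusted p = 0.251). At 104 weeks the level stood at -0.39 ± 0.15 relative to 16 weeks (adjusted p = 0.0908). Under free feeding mutants stood at 0.32 ± 0.14 relative to wild types (adjusted p = 0.173).

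Of the 2224 annotated exon bases of Ugt1a1, 1311 (58.9%) are shared with 8 other Ugt1a genes on the same strand, and 78.8% of the stretches of 75 bases in its transcript also occur in other genes. How such reads were counted is not given in the sources used here. Of 7 other Ugt1a genes tested, 6 were lower in freely fed mutants than in wild types, beside 4.85% of all tested genes called lower. Since these genes share exons, the 6 calls are not separate results. Among them was Ugt1a9, at 101 ± 16.7 CPM in mutants, against 180.2 ± 31.0 CPM in wild types (-0.84 ± 0.16, adjusted p = 0.000854). The count of 6 fell to 3 without replicate 1 or 3 of the mutants or replicate 1 of the wild types. With restriction, Ugt1a5 was higher in mutants, at 28.0 ± 5.16 CPM in restricted mutants, against 9.93 ± 2.39 CPM in freely fed mutants (1.49 ± 0.33, adjusted p = 0.00352), and in wild types, at 45.4 ± 19.1 CPM, against 18.6 ± 2.26 CPM (1.29 ± 0.32, adjusted p = 0.00965). Ugt1a5 thus moved with restriction as Ugt1a1 did, and so did Ugt1a2 (1.46 ± 0.28 in mutants, adjusted p = 0.000856, and 1.08 ± 0.26 in wild types, adjusted p = 0.00795). Ugt1a6b was lower with restriction in mutants (-0.66 ± 0.10, adjusted p = 7.44e-05) and in wild types (-0.61 ± 0.10, adjusted p = 0.000207).

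Ephx1 encodes microsomal epoxide hydrolase, which opens the reactive epoxides that P450s make (chr1:180976210-181020904, minus strand). The 250 bases upstream of its RefSeq start (GRCm38.p6, chr1:181017570-181017819, minus strand) are shown for comparison with Ugt1a1, since these genes took opposite directions with restriction. None of the motifs searched was found in it, which says nothing of any factor.
Ephx1: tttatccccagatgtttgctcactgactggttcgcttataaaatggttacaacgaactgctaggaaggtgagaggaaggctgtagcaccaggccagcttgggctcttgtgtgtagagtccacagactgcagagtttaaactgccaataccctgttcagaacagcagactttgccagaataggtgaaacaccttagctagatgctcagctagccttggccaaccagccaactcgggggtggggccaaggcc

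Ephx1 had 192, 248, 264 and 238 CPM in restricted mutants, 525, 439, 411 and 379 CPM in freely fed 16-week mutants and 348, 382, 323 and 368 CPM in 7-week mutants. Wild-type levels were 250.4, 118, 116 and 119.5 CPM under restriction, 263, 312, 222 and 209.9 CPM at 104 weeks and 422, 242, 526 and 279 CPM at 16 weeks of free feeding. Restricted mutants lay below all freely fed mutants. Among restricted wild types 3 libraries lay between 116 and 119.5 CPM and 1 stood at 250.4 CPM. That library was just above the lowest freely fed 16-week wild type (242 CPM) and within the range of the 104-week wild types.

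Ephx1 was 2.43-fold lower in restricted than in freely fed wild types (-1.28 ± 0.23, adjusted p = 0.00069) and 1.86-fold lower in restricted than in freely fed mutants (-0.90 ± 0.23, adjusted p = 0.0117), and both calls held without each library in turn. The difference between these effects was 0.39 ± 0.32 (adjusted p = 0.638). Restricted mutants stood at 0.64 ± 0.23 relative to restricted wild types (adjusted p = 0.0554). That difference was called without replicate 1 of the restricted wild types, the library at 250.4 CPM (1.00, adjusted p = 0.0013), without replicate 1 of the restricted mutants (0.72, adjusted p = 0.0472), by DESeq2 (adjusted p = 0.0322) and under both other scalings (adjusted p = 0.0486 and 0.0368). Beside the restriction effects in wild types, clock genes differed as well, with Dbp at 2.79 ± 1.26 CPM in restricted and 11.9 ± 5.45 CPM in freely fed wild types (-2.10 ± 0.41, adjusted p = 0.00175), and the part of the clock phase in them was not tested. Of 17 clock genes, 6 were lower and 1 higher in restricted mutants than in restricted wild types, beside 8.7% and 9.58% of all genes. Among the lower was Arntl, at 17.5 ± 4.08 CPM in mutants, against 32.2 ± 8.95 CPM in wild types (-0.87 ± 0.23, adjusted p = 0.0104, and 0.0509 in a fit of those groups alone). The 6 became 1 in a fit of those groups alone and 3 to 5 when a library was left out, with the fewest without replicate 2 of the mutants or replicate 2 or 4 of the wild types. Restricted mutants had lower Nr1d1 than freely fed mutants (-1.40 ± 0.42, adjusted p = 0.033, lost without any 1 of 5 of the 8 libraries). These differences stand beside the calls of Ces2a and Ces2c under restriction and of Ugt1a1 and Ephx1 in mutants, and their part in them was not tested.

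**Figure D4:**
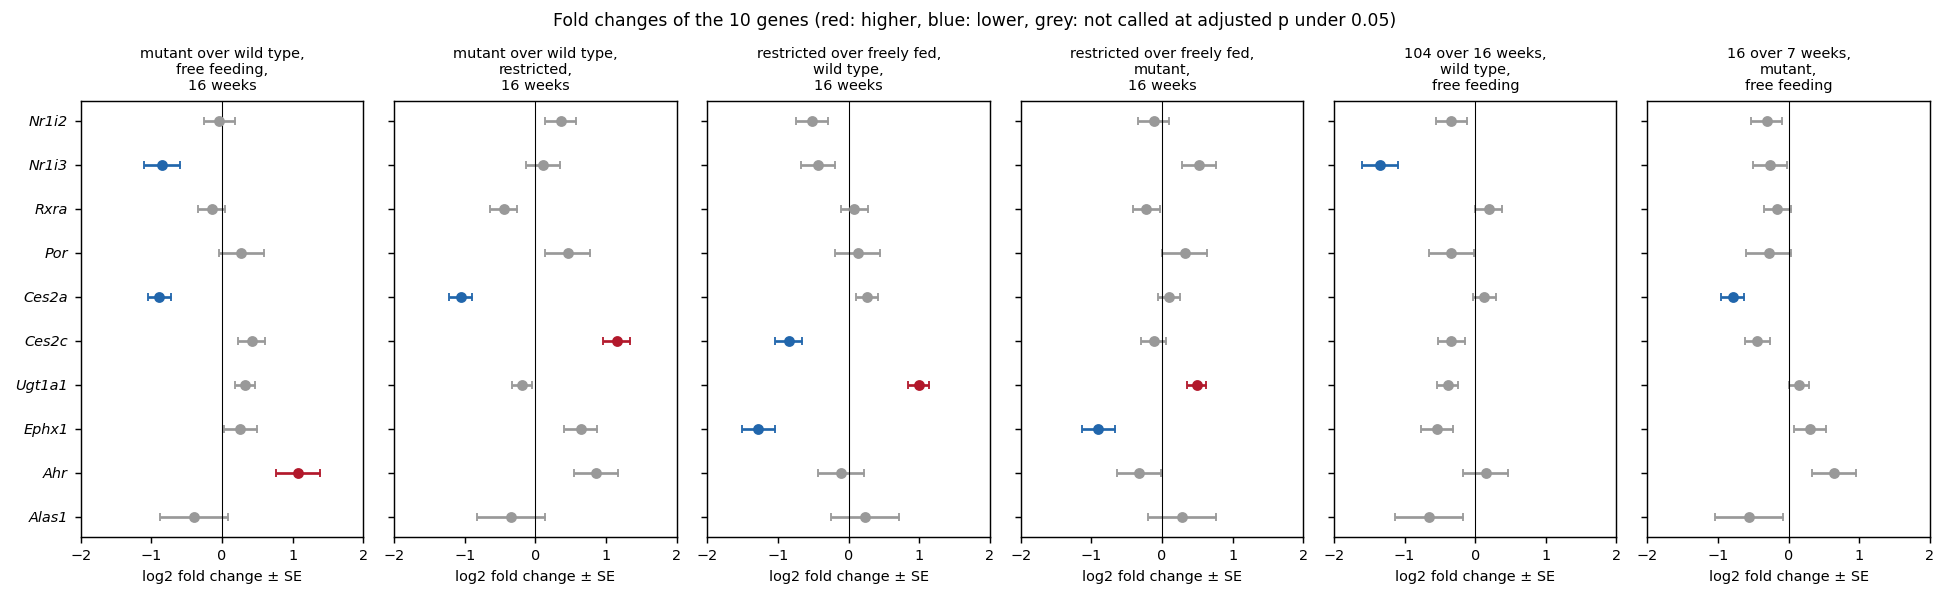
Log2 fold changes ± SE (x axes) of the 10 genes (rows) in 6 comparisons of groups; red points were called higher, blue points lower and grey points neither. Ces2a is the only member called in both genotype comparisons, and Ugt1a1 and Ephx1 are the members called in both restriction comparisons.

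Targets of CAR and PXR outside the 10 genes were described from a list of 48, all of which were tested. The list was chosen with earlier results of these data known, so its counts beside the shares of all genes are a description and no test. It holds related genes that can move together, such as Cyp2b9, Cyp2b10, Cyp2b13 and Cyp2b23. Ces2b and Ugt1a9 stand in this list and in another. In freely fed mutants 4 were higher and 12 lower than in wild types, with a median log2 fold change of -0.07, beside 5.1% of all tested genes called higher and 4.85% called lower. Under restriction 21 were higher and 8 lower in mutants, with a median of 0.35, beside 9.58% and 8.7% of all genes. The first count of the restricted comparison fell to 13 without replicate 3 of the restricted mutants and to 8 in a fit of those groups alone. Restricted mutants had 22 higher and 8 lower than freely fed mutants, with a median of 0.53, beside 4.91% and 6.33% of all genes. Restricted wild types had 12 higher and 8 lower than freely fed wild types, with a median of 0.05, beside 6.3% and 7.3% of all genes. The 12 became between 5 and 11 when a library was left out, most of all without replicate 2 or 3 of the freely fed wild types. At 104 weeks 16 were lower and 3 higher than at 16 weeks, with a median of -0.28, beside 5% and 5.13% of all genes, and the 3 became between 0 and 3 when a library was left out. Mutants at 16 weeks had 3 lower than at 7 weeks, beside 0.331% of all genes. For the restriction effect in mutants minus that in wild types, 11 of the 48 were called higher, with a median of 0.43, beside 0.906% of all genes, and between 7 and 11 were when a library was left out, with the largest moves without replicate 1 or 2 of the freely fed mutants. The medians of all tested genes lay between -0.04 and 0.04 in these comparisons.

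Cyp2b10, the classical CAR target, had the largest fold change of the list in the freely fed genotype comparison. It averaged 0.489 ± 0.217 CPM in freely fed 16-week mutants, against 23.8 ± 8.04 CPM in wild types (-5.58 ± 0.58, adjusted p = 1.64e-06). Restricted mutants stood at 25.03 ± 15.9 CPM, well above freely fed mutants (5.65 ± 0.58, adjusted p = 7.38e-07). In wild types it was lower at 104 weeks, at 2.77 ± 1.48 CPM (-3.12 ± 0.48, adjusted p = 0.000196). Its restriction effect was larger in mutants than in wild types by 3.80 ± 0.72 (adjusted p = 0.00675). The highest mean of Cyp2b10 was in restricted wild types, at 85.9 ± 29.9 CPM. Freely fed 16-week mutants lay near 0, at 0.189 to 0.699 CPM, so fold changes against that group rest on a very low level. In freely fed 16-week mice, Cyp2b10 and Nr1i3 were both lower in mutants. Both were also lower in wild types at 104 than at 16 weeks, with Nr1i3 at -1.35 ± 0.25 (adjusted p = 0.000973). In restricted relative to freely fed mutants, Nr1i3 stood at 0.52 ± 0.24 (adjusted p = 0.181). In restricted wild types, where Cyp2b10 was highest, Nr1i3 stood at -0.44 ± 0.24 relative to freely fed wild types (adjusted p = 0.245). The part of Nr1i3 in the levels of Cyp2b10 was not tested. Cyp3a11, the classical PXR target, was lower in freely fed mutants at 16 weeks, at 546 ± 51.7 CPM, than at 7 weeks, at 1331 ± 275 CPM (-1.29 ± 0.22, adjusted p = 0.00346). Nr1i2 stood at -0.31 ± 0.22 in that comparison (adjusted p = 0.694). Freely fed wild types had 1549 ± 207 CPM of Cyp3a11 at 16 weeks and 193 ± 39.4 CPM at 104 weeks. The age effect in mutants minus that in wild types was 1.72 ± 0.30 (adjusted p = 0.00153). The fall was thus larger in wild types, over age spans that are not the same. Restricted mutants had 1947 ± 324.5 CPM and restricted wild types 1179 ± 530 CPM. Sult1e1, an estrogen sulfotransferase, was higher in restricted mutants, at 103 ± 49.8 CPM, than in restricted wild types, at 7.61 ± 8.22 CPM (3.76 ± 0.68, adjusted p = 0.000671), though a fit of those groups alone gave an adjusted p of 0.0518.

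**Figure D5:**
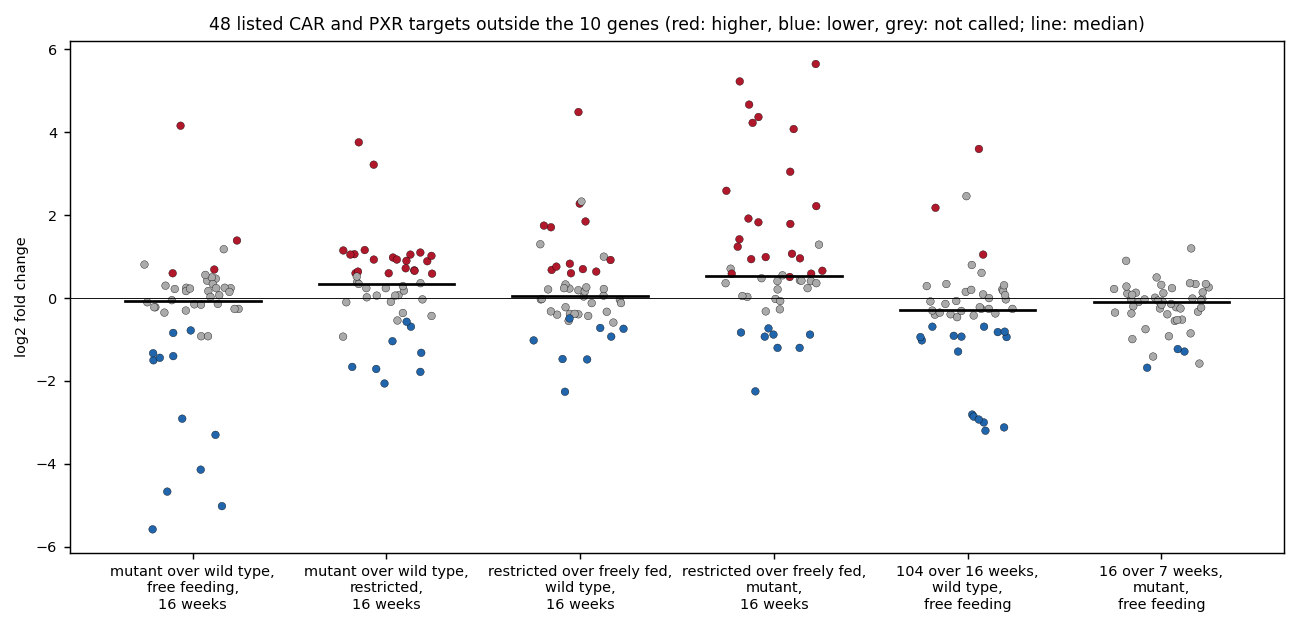
Log2 fold changes (y axis) of the 48 listed CAR and PXR targets in 6 comparisons of groups (x axis); each point is a gene, red where called higher, blue where called lower and grey where neither, and the line is the median. The median is highest for restricted over freely fed mutants (0.53) and lowest for 104 over 16 weeks (-0.28).

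Receptor partners and coregulators were described from a list of 20 genes. Foxa2, a pioneer factor of liver enhancers, was lower in freely fed mutants, at 25.7 ± 5.44 CPM, than in wild types, at 48.5 ± 14.5 CPM (-0.91 ± 0.26, adjusted p = 0.026), a call lost without any 1 of 5 of the 8 libraries. Hsp90aa1, a chaperone of the complexes that hold CAR and AHR in the cytoplasm, was lower in restricted mutants, at 387 ± 152 CPM, than in restricted wild types, at 775 ± 159 CPM (adjusted p = 0.00625). Dnajc7, which also binds CAR in the cytoplasm, was higher in restricted wild types, at 61.0 ± 5.97 CPM, than in freely fed wild types, at 43.2 ± 0.764 CPM (0.50 ± 0.12, adjusted p = 0.00685). At 104 weeks Rxrg, another RXR, was lower, at 2.13 ± 0.395 CPM, than at 16 weeks, at 5.89 ± 0.639 CPM (-1.47 ± 0.36, adjusted p = 0.00916). Of 8 microsomal electron carriers and other redox partners, Pgrmc1, a heme protein that binds P450s, was lower with restriction in mutants (-0.53 ± 0.10, adjusted p = 0.00103) and in wild types (-0.66 ± 0.10, adjusted p = 0.00014). Ephx2, the soluble epoxide hydrolase, was lower in freely fed mutants, at 731 ± 54.4 CPM, than in wild types, at 1119 ± 52.3 CPM (-0.62 ± 0.14, adjusted p = 0.00484), whereas Ephx1 was not called there (0.26 ± 0.23, adjusted p = 0.549).

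For 9 of the 10 genes, tested genes with the most similar levels over the 24 libraries are named by Pearson correlation of log2(CPM + 0.5), as a description. For the receptors these were Trim41 for Nr1i2 (r = 0.844), Slc25a20 for Nr1i3 after Tomm40l (r = 0.863), Dcaf10 for Rxra (r = 0.817) and Atpaf1 for Ahr (r = 0.802). For the enzymes they were Ppp1cc for Por (r = 0.823), Clk1 for Alas1 (r = 0.767), Immp2l for Ces2a (r = 0.859), Spg7 for Ces2c after Ces2b (r = 0.904) and Capns1 for Ephx1 (r = 0.879). All libraries of a group enter these values, so that a shared group difference raises them.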

How the data were processed

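Polyadenylated RNA of 24 liver samples was sequenced. The values used are the authors' deposited counts of reads per gene, raw and not normalized. GRCm38.p6 is the build that the submitters' processing notes name, and they list STAR 2.7.0f, Trimmomatic 0.39 and, from Subread 1.6.4, featureCounts. Not given in the sources used here are the annotation release, the strand setting and how multi-mapping reads were treated. The deposited table also holds gene lengths, an other kind of value, which entered no level or test. They were only compared with the gene spans of GENCODE M21. Of the 22429 gene IDs, 21689 matched GENCODE M21 with their version, and coordinates come from that release. Promoter sequences come from the RefSeq table (GRCm38.p6), which held 9 of the 10 genes and not Ahr.

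Counts were scaled by TMM, and 12690 genes passed edgeR's filter on low counts, all 10 genes among them. A single edgeR 4.0.16 quasi-likelihood model with 6 group means (R 4.3.3, 18 residual degrees of freedom, no covariate) gave 8 contrasts, with Benjamini-Hochberg adjustment over all tested genes. SEs were taken as the log2 fold change over the square root of F. The script was tested on simulated counts. Alternatives were median-of-ratios and upper-quartile scaling, no filter, a replicate block, a fit of the compared groups alone, DESeq2 1.42.0 and each library left out.

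The 10 genes and all gene lists were chosen with earlier results of these data known. From each list, up to 3 called genes per comparison with the largest absolute log2 fold change and a mean of at least 2 CPM are named, with the genes most alike in level and, after their values were seen, Cyp1a2 where it was not called. Depth was 13.3 to 20.6 M counts per library. No libraries were alike within sampling noise.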

Additional observations from a re-analysis of the deposited data

Results flagged for a closer look

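In restricted wild types, Ephx1 stood at 250.4 CPM in replicate 1, while the other 3 libraries lay between 116 and 119.5 CPM. The gap to the nearest library was 0.976 of the range of the group, above the limit of Dixon's test for 4 libraries. In freely fed 16-week wild types, Alas1 stood at 1565 CPM in replicate 1, and the gap was 0.934 of the range. Of 60 groups of 4 libraries looked at, these 2 passed the limit, and chance alone passes about 1 in 20. Ces2a differed in its age effect between genotypes, at -0.92 ± 0.22 for mutants minus wild types (edgeR, adjusted p = 0.0202). It was lower at 16 than at 7 weeks in mutants (-0.79 ± 0.16), and stood at 0.13 ± 0.16 for 104 over 16 weeks in wild types, over age spans that are not the same.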

How the results depend on the processing

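Of the 13 calls among the 10 genes, each kept its direction under every alternative run, and 8 kept their call when each library was left out. Without a filter on low counts, Ahr lost its call (adjusted p = 0.0538). The number of the 10 genes called was 2 for mutant over wild type under restriction and became 4 under upper-quartile scaling and by DESeq2. It was 1 for 16 over 7 weeks in mutants and became 2 in a fit of those groups alone, and 1 for the age effect in mutants minus wild types, which became 2 in such a fit and by DESeq2. Leaving out a library gave 1 to 3 (mutant over wild type, free feeding), 2 to 4 (restricted), 1 to 2 (restriction in mutants), 0 to 1 (16 over 7 weeks) and 0 to 1 (age effect in mutants minus wild types). Over all genes, the fit of the compared groups alone called 2202 against 1262 (mutant over wild type, free feeding), 877 against 2320 (restricted), 986 against 1726 (restriction in wild types), 568 against 87 (16 over 7 weeks), 126 against 190 and 755 against 387 (differences of restriction and age effects). DESeq2 called 201, 388 and 646 in the last 3. The cause was not tested. Same-numbered libraries correlated between -0.27 and 0.35 in their deviations. Libraries of different numbers were not compared in this way, so the values cannot decide whether the numbers pair the samples. The labels do not say that they do, and the main model did not pair them. With a replicate block, 3 of the 10 genes were called for mutant over wild type on either diet, 3 and 2 for restriction in wild types and mutants, 1 in each age comparison, 0 for the difference of restriction effects and 1 for that of age effects, and Ephx1 was called under restriction (0.69, adjusted p = 0.0374). Some fold changes of the 10 genes that were not called changed sign. With the block, the age effect of Alas1 in mutants minus wild types was -0.13. With a library left out, values that crossed 0 spanned -0.22 to 0.05 (Ces2c), -0.07 to 0.21 (Nr1i2), -0.05 to 0.23 (Por) and -0.43 to 0.35 (Alas1) for that difference, and -0.42 to 0.58 (Alas1), -0.43 to 0.06 (Ahr), -0.20 to 0.41 (Por) and -0.30 to 0.01 (Ces2a) for the difference of restriction effects. They spanned -0.26 to 0.01 (Ces2c), -0.07 to 0.54 (Por) and -0.28 to 0.06 (Nr1i2) for restriction in mutants and -0.02 to 0.42 (Por), -0.27 to 0.09 (Ahr), -0.27 to 0.72 (Alas1) and -0.08 to 0.16 (Rxra) in wild types. For mutant over wild type they spanned -0.15 to 0.02 (Nr1i2) and -0.93 to 0.07 (Alas1) under free feeding, and -0.07 to 0.32 (Nr1i3) and -0.66 to 0.17 (Alas1) under restriction. For 104 over 16 weeks they spanned -0.00 to 0.36 (Ahr) and, for the listed target Akr1b7, which was called at 3.60 (adjusted p = 0.0358), -0.17 to 3.98, the lowest without replicate 3 of the 104-week group. Total-count scaling moved 2 of 60 group means by more than 1 SD, Ces2a and Ugt1a1 in restricted mutants. Depth did not limit these genes.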
